A study of Mus musculus with 8 samples.

Results

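The elements described here are distal stretches of chromatin that carried acetylated lysine 27 of histone H3 (H3K27ac) in control hematopoietic stem cells (HSCs) and had no called H3K27ac peak in HSCs without retinoid X receptors alpha and beta, while H3K4me1 was called there in every library of both genotypes. They were chosen by measured values: overlapping H3K27ac peaks of both genotypes were merged into 83138 regions, of which 67499 lay more than 1 kb from either end of any protein-coding gene. Of the 60434 of these that overlapped an H3K4me1 peak in all 4 H3K4me1 libraries, 13985 were called acetylated in the control alone. In the same set 38913 were acetylated in both genotypes and 7536 in the receptor-deleted cells alone. A further 3646 distal regions acetylated in the control alone had no H3K4me1 peak in at least 1 library and were set aside.

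The cells were Lin-cKit+Sca1+CD48-CD150+ HSCs sorted from the bone marrow of C57BL/6 mice about 10 months old, pooled from 4 or 5 mice, with 7500 cells per assay. The RXRKO group is VaviCre+Rxrabfl/fl, in which Cre under Vav1 regulatory elements deletes both receptors. These elements drive Cre throughout the blood lineage from fetal life, so the loss is neither limited to HSCs nor recent. The control group, WT, is described as Rxrabfl/fl without Cre in the protocol and as VavCre+; WT in the genotype label, so whether Cre itself differs between the groups is not settled by the labels. The assay was CUT&RUN, which releases DNA around marked nucleosomes with an antibody-guided nuclease, and it gave 2 H3K4me1 libraries per genotype but 1 H3K27ac and 1 H3K4me3 library per genotype. The acetylation and H3K4me3 contrasts therefore have no replicate and no test, and the labels do not say that the 2 H3K4me1 replicates came from separate pools of mice.

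Retinoid X receptors are nuclear receptors that pair with retinoic acid, PPAR, LXR, vitamin D and thyroid hormone receptors and bind repeats of the hexamer AGGTCA. Bound to ligand, the pairs recruit acetyltransferases such as p300 and CBP, and unliganded pairs can hold the NCoR and SMRT corepressors with the deacetylase HDAC3. H3K4me1 marks enhancers whether or not they are in use, H3K27ac marks those in use, and H3K4me3 is concentrated at transcription start sites. In HSCs enhancers of this kind surround the genes that keep the cells undifferentiated and mostly out of cell cycle.

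No genome of the build was used here, so sequence is shown only where an element overlapped a RefSeq start window (GRCm38.p6, from 250 bases before to 50 bases after an annotated start). Of the 13985 elements, 253 (1.81%) did so, 97 at starts of protein-coding transcripts inside their genes and 160 at lncRNA starts. The share was 4.97% at regions acetylated in both genotypes and 1.11% at those acetylated in RXRKO alone. Shown are the start of the lncRNA Gm52148 (chr14:31160485-31160784, plus strand), the most strongly acetylated of these elements in WT, an internal start of Adcy7 (chr8:88282742-88283041, plus strand), the one with the smallest H3K4me1 p, and the start of the lncRNA C920009B18Rik (chr10:22306532-22306831, plus strand), where H3K4me3 too was called in WT alone. Capitals mark matches to AGGTCA on either strand, which appear as AGGTCA or TGACCT.
Gm52148: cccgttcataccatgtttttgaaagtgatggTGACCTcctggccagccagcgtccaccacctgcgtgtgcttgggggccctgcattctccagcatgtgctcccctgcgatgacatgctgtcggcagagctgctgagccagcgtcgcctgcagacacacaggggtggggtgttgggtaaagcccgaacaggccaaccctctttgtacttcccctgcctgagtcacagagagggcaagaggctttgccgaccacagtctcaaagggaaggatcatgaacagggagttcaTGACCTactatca
Adcy7: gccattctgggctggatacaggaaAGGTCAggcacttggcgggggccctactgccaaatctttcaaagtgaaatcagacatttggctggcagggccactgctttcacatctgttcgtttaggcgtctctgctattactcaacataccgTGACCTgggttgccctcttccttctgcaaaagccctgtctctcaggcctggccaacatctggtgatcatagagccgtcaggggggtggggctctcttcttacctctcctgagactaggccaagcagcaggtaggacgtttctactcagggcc
C920009B18Rik: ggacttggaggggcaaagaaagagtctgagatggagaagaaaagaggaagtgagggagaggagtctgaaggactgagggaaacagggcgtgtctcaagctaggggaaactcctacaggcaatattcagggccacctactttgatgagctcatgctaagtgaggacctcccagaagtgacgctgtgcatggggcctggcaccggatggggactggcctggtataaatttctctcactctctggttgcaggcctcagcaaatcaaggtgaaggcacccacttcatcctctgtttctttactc
Gm52148 and Adcy7 held 2 matches each and C920009B18Rik held none. A match is a stretch of letters and not a measured binding site, and its absence says only that these letters are not in this window. Over the 278 start windows that overlapped the elements, AGGTCA or its reverse complement was found in 15.8%, against 16.3% of all 32851 windows. It was found in 15.6% of the 2300 windows at regions acetylated in both genotypes and 28.6% of the 105 at RXRKO-only regions. The GATA letters AGATAA were found in 11.5% against 11.2%, the ETS letters GGAAGT in 21.9% against 23.8%, the RUNX letters TGTGGT in 23.7% against 16.8%, and the E-box CACGTG bound by MYC and MAX in 11.2% against 7.15%, each searched on both strands and none contained in another. In the same 2 other classes GATA had 9.83% and 12.4%, and ETS 28.8% and 22.9%. RUNX had 18.6% and 17.1% there, and the E-box 8.17% and 4.76%.

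RefSeq microRNA hairpins, 12 in all, overlapped 11 of the elements, some of them only in part. Mature sequences are shown for 2 well-studied loci and for the hairpin element with the strongest acetylation, with the seed (bases 2 to 8) in capitals.
mmu-miR-24-3p: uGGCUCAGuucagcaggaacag
mmu-miR-132-3p: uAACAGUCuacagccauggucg
mmu-miR-5103: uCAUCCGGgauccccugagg
The seeds of these 3 differ. The Mir24-2 element (chr8:84208846-84209280) had a WT H3K27ac -log10 q of 3.09, H3K4me3 in WT alone, and H3K4me1 over 1899 and 2005 bp in WT and 2029 and 2131 bp in RXRKO. The Mir132 element (chr11:75173485-75173756), at -log10 q 6.29, had H3K4me1 over 216 and 1386 bp in WT and 444 and 1248 bp in RXRKO, so the replicates of each genotype differed more than the genotypes. The Mir5103 element (chr1:34432760-34433540) reached -log10 q 13.7 with H3K4me1 over 1424 and 1565 bp in WT and 1323 and 1383 bp in RXRKO. None of the hairpin elements had an adjusted p under 0.05 in the limma test of H3K4me1 described below.

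Marks at the starts of marker genes were checked against the cell label. H3K4me3 was called at the starts of all 8 HSC marker genes that had a start window (Kit, Mecom, Meis1 and others), and H3K27ac at 7 in WT and 6 in RXRKO, with Kit the one called in WT alone. Of 10 lineage genes, 3 in WT and 4 in RXRKO had H3K4me3 and 5 and 4 had H3K27ac, of 3 niche cell genes 2 and 1 had these marks in each genotype, and none of 4 genes silent in blood had either mark in either genotype. Marks at some lineage and niche genes thus went beyond the label, and their part in the results was not tested. Peak numbers ranged from 47835 to 165128 per library. The lists give no read totals, so depth is unknown, and the caller's lowest background, read back from its fold and p values, stands in for it. For H3K27ac this was 4.77 fragments in WT and 4.19 in RXRKO, a ratio of 0.878, and 74287 and 64849 peaks were called.

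Acetylation at the elements was weak to moderate. These values chose the elements and are a description. The WT -log10 q had a lowest value of 1.58, a median of 4.99 and a highest of 45.8, where regions acetylated in both genotypes had a median of 11.5. The authors' fold over background had a median of 3.21 and a highest of 9.54, and the peak pileup a median of 23 fragments against 38 at shared regions. A region without an RXRKO peak has a level under the caller's threshold there, which the lists do not give, so no fold between genotypes can be stated, and in sorted bulk cells fewer cells with the mark and less mark per cell cannot be told apart. The 13985 elements were 23.1% of the 60434 regions, the share set by the rule, and regions acetylated in RXRKO alone were 12.5%.

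The share of WT-acetylated distal regions with no RXRKO call depended on WT strength. It was 66.8% (1375 of 2057) at -log10 q under 3, 56.3% (5631 of 9993) from 3 to 5, 33% (5789 of 17551) from 5 to 10, 8.36% (1126 of 13469) from 10 to 20 and 0.651% (64 of 9828) at 20 and over. Most elements thus had a -log10 q under 10, and 64 were as strong as 20 or over. When the same number of top-ranked peaks was taken from both H3K27ac lists, 10102 distal regions were acetylated in WT alone and 9911 in RXRKO alone, so at equal list length the 2 counts were nearly the same. Requiring -log10 q of at least 5 for the WT peak and no RXRKO peak of any q left 6979 elements. At the distance limit, the 180 elements 1001 to 1200 bp from a gene end had a median -log10 q of 4.62 and the 213 regions 801 to 1000 bp away one of 4.72.

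**Figure D1:**
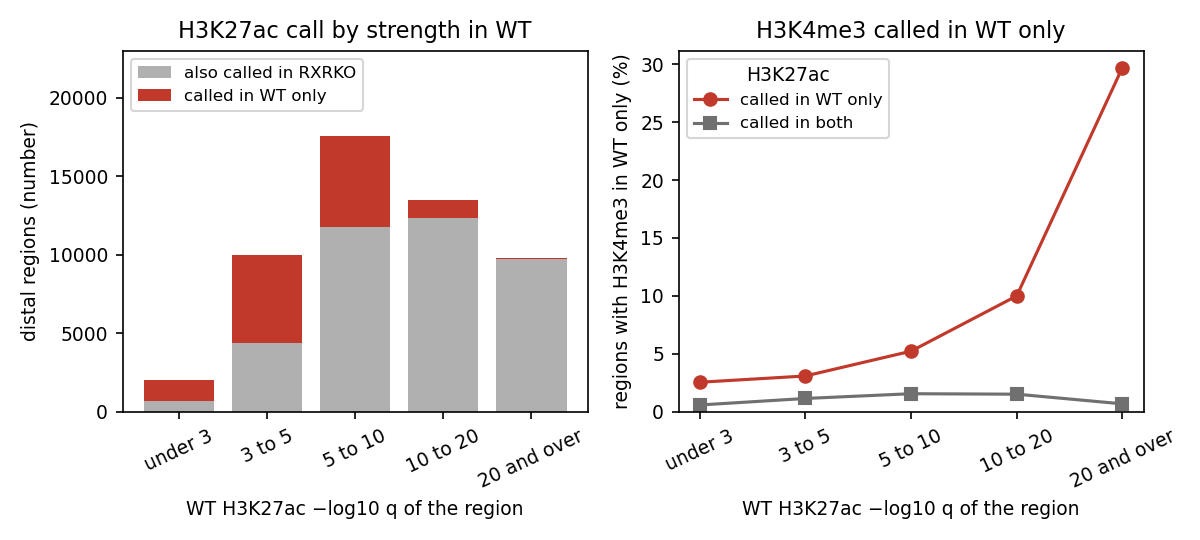
Left, distal regions with a WT H3K27ac peak and H3K4me1 in all 4 libraries, by the WT -log10 q of H3K27ac, split into those also called in RXRKO (grey) and those called in WT only (red). Right, the percent of each kind with H3K4me3 called in WT only, which is 29.7% for the 64 control-only elements at -log10 q of 20 and over and 0.686% for the shared regions of that strength.

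The elements were short, and many had acetylated chromatin of the other genotype nearby. Their width ran from 212 to 1768 bp with a median of 331 bp, against 763 bp at shared regions and 351 bp at RXRKO-only regions. Of the 13985, 7950 (56.8%) lay inside a protein-coding gene, and the 6035 outside were a median of 25720 bp from the nearest one, with 1149 more than 100 kb away. Exon and intron positions were not used here. An RXRKO H3K27ac peak lay within 500 bp of 1558 (11.1%) and within 5 kb of 6285 (44.9%), at a median gap of 5839 bp. For RXRKO-only regions and WT peaks these values were 15.9%, 49% and 5156 bp. H3K4me1 covered the whole element in all 4 libraries at 8122 (58.1%), and the elements rested on 13650 distinct H3K4me1 peaks of WT replicate 2, so few shared a peak. By chromosome, the control-only share of distal regions ran from 20.7% on chromosome 16 to 24.9% on chromosome 11.

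**Figure D2:**
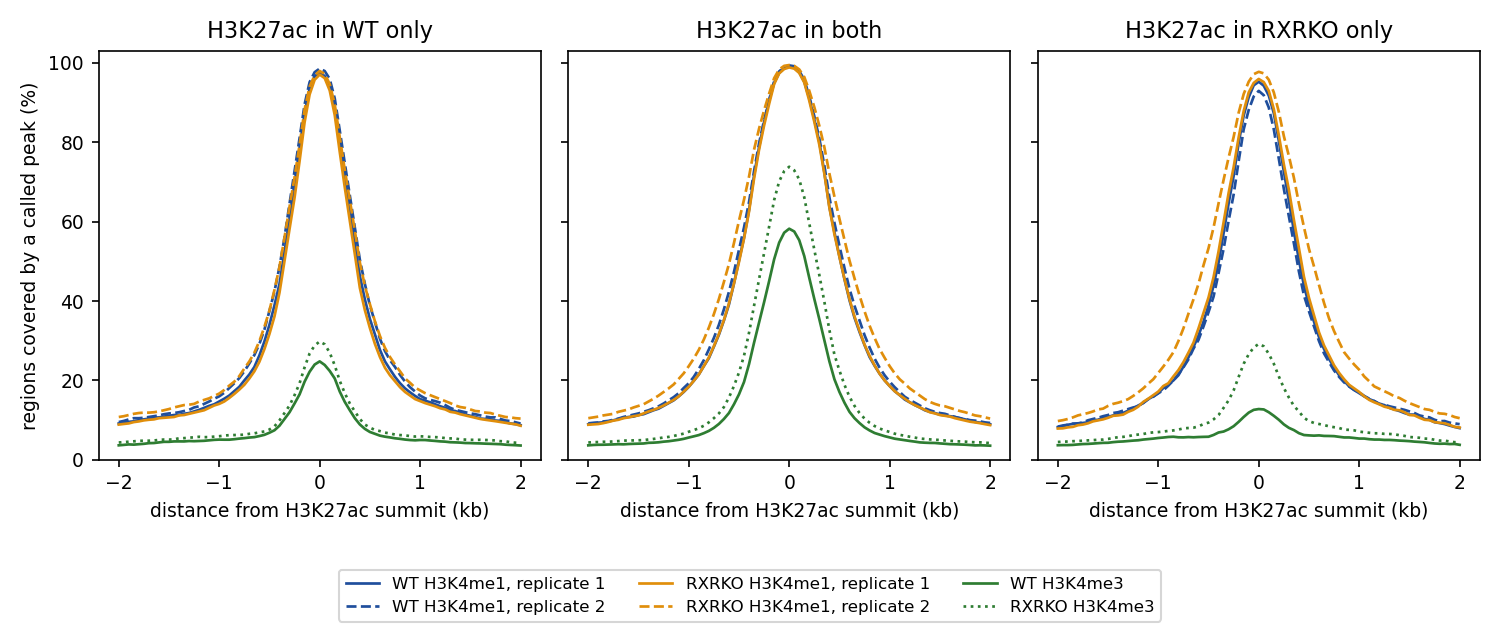
Percent of regions covered by a called peak at each distance from the H3K27ac summit, for the 13985 control-only elements, the 38913 shared and the 7536 RXRKO-only regions. Each line is 1 library. At the summits of the control-only elements 97% to 98.5% were covered by H3K4me1 in each of the 4 libraries, and 24.8% and 29.8% by H3K4me3 in WT and RXRKO.

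H3K4me1, the mark the rule used only as present in all libraries, was slightly narrower in RXRKO at the control-only elements than at other regions, and no single element passed the test. Its extent was measured as the base pairs covered by called H3K4me1 peaks in the element and 1 kb on each side. The median over elements was 936 and 990 bp for WT and 885 and 987 bp for RXRKO. On the log2(bp + 100) scale, centred on each library's median over all 60434 regions, the median RXRKO minus WT difference was -0.067 over the elements, -0.013 at shared regions, 0.070 at RXRKO-only regions and -0.018 over all. The difference was below 0 at 9304 of the 13985 elements (66.5%), against 54.7% of all regions.

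Limma, with Benjamini-Hochberg adjustment over all 60434 regions, called 0 regions lower (0%) and 0 higher at an adjusted p under 0.05. Its smallest adjusted p over the elements was 0.297. In simulated data of this size the test called 1 of 50 regions lowered by 2 log2 and 17 of 50 raised by 2. It called 0 of 50 at a change of 1 in either direction. The simulated lengths were not capped at the window, so raised values could exceed what a real window can hold. The 0 calls in the data thus do not show that the elements did not differ. With 1 WT library left out, limma called 187 elements lower and 43 higher (without WT replicate 1) or 92 and 37 (without WT replicate 2), the lone WT library being assumed to vary like RXRKO, and without either RXRKO library it called 0. At an unadjusted p under 0.05, 937 elements (6.7%) were lower in RXRKO where the share over all regions was 2.96%, and 194 (1.39%) were higher where it was 3.7%. Both RXRKO libraries lay below both WT libraries at 3805 elements (27.2%; 18.6% of all regions) and above both at 1248 (8.92%; 15% of all regions). Without centring, the values without overlap were lower at 2636 elements (18.8%; 10.6% of all regions) and higher at 1967 (14.1%; 21.8% of all regions), and 52.8% of the elements were below 0 against 38.7% of all. The lean of the elements is therefore relative to the other regions, and these p-values measure only the spread between libraries.

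Within each replicate number the lean had the same sign and an unequal size. The replicate 1 libraries, both from 1 run by the run tags in the peak names, gave a median of -0.022, with 54.4% of the elements below 0. The replicate 2 libraries, from the other run, gave -0.113, with 70.4% below 0. Both H3K27ac libraries, whose calls chose the elements, carry the tag of the replicate 2 run, as do both H3K4me3 libraries. The larger lean thus came from the run of the acetylation calls. Replicate number and run cannot be told apart, and the part of the shared run was not tested. RXRKO replicate 2 had the highest recovered background of the 4 H3K4me1 libraries, 12.6 fragments against 5.62 to 7.37. The part of this in the replicate 2 value was not tested. By WT acetylation strength the median difference over the elements was -0.060, -0.058, -0.074, -0.097 and -0.164 from the weakest to the strongest of the 5 classes. At shared regions of the same classes it was from -0.021 to 0.028. In the replicate 2 libraries the element medians were -0.093, -0.102, -0.121, -0.161 and -0.217. In the replicate 1 libraries they were -0.031, -0.017, -0.020, -0.034 and -0.058, so the steady fall with strength came from replicate 2.

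**Figure D3:**
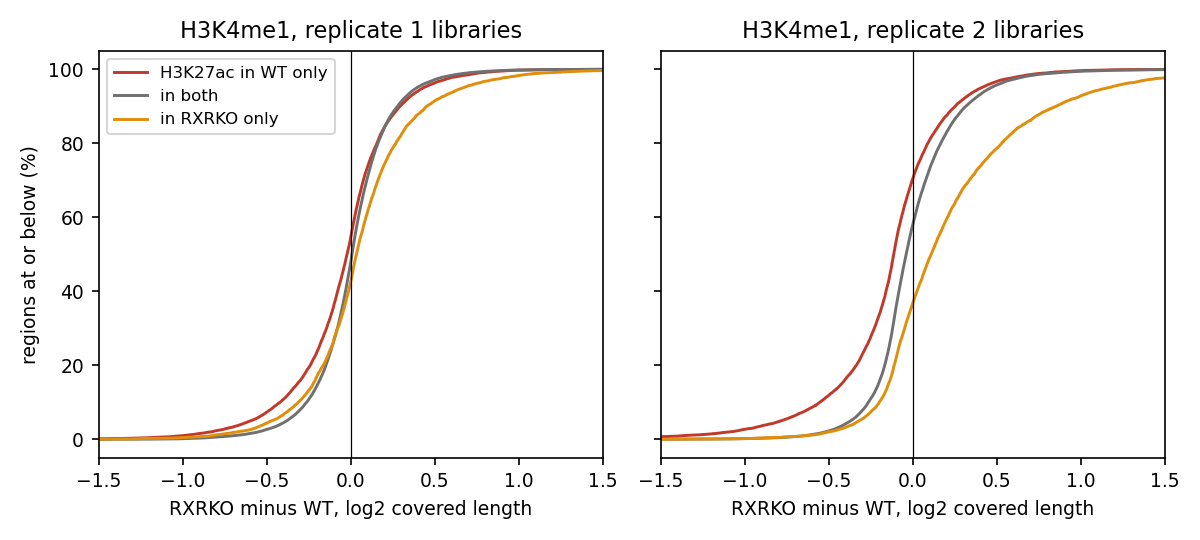
Cumulative share of regions by the RXRKO minus WT difference in log2 H3K4me1 covered length, for replicate 1 libraries (left) and replicate 2 libraries (right). Lines are control-only elements (red), shared regions (grey) and RXRKO-only regions (orange). The red line crosses 0 at 54.4% on the left and 70.4% on the right.

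A small group of elements had much narrower H3K4me1 in RXRKO. At 113 elements (0.808%) both RXRKO libraries lay below both WT libraries and the difference was past -1 on the log2 scale, and at 6 (0.0429%) the reverse held past 1. Over all 60434 regions these shares were 0.223% and 0.435%. At shared regions the counts were 15 and 62 of 38913, and at RXRKO-only regions 7 and 195 of 7536 (0.0929% and 2.59%), the reverse balance. These limits were set after the values were seen.

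The element near Pdk4 had the lowest p of all 13985 in the H3K4me1 test and the second highest acetylation. Pdk4 encodes the kinase that shuts down pyruvate dehydrogenase and so favours fatty acid over glucose oxidation, and it is a textbook target of PPAR and RXR pairs. The element, chr6:5508825-5510556, is 1732 bp wide and begins 12547 bp upstream of the gene, with the nearest RXRKO H3K27ac peak 11794 bp away. Its WT -log10 q was 45.3, with a fold of 6.07 and a pileup of 107 fragments. H3K4me1 covered 2141 and 1829 bp in WT and 303 and 284 bp in RXRKO, with no overlap between the genotypes, a log2 difference of -2.46 ± 0.188 (SE, n = 2 per genotype) and a limma adjusted p of 0.297. With WT replicate 1 or WT replicate 2 left out, the difference was -2.33 or -2.59, and without RXRKO replicate 1 or RXRKO replicate 2 it was -2.58 or -2.34. H3K4me3 covered 938 bp of it in WT, at a fold of 8.59, and was not called in RXRKO. Of the 4 distal regions nearest to Pdk4, 2 were control-only and 2 shared. The other control-only element, chr6:5589692-5590130, lay 93414 bp upstream at -log10 q 12.9, with H3K4me1 over 409 and 381 bp in WT and 298 and 538 bp in RXRKO, which overlap, and with H3K4me3 in WT alone.

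Among the 10 elements with the highest WT acetylation, H3K4me1 was lower in RXRKO at all 10 by the mean, without overlap at 7, and at an unadjusted limma p under 0.05 at 5. Over all elements these shares were 66.5%, 27.2% and 6.7%, and over all regions 54.7%, 18.6% and 2.96%. H3K4me3 was called in WT alone at 7 of the 10, in both genotypes at 1 and in neither at 2. Calls in WT alone were found at 4.6% of all elements and 1.97% of all regions. The strongest, chr13:98902396-98903253 inside Tnpo1, the nuclear import receptor transportin, had -log10 q 45.8. H3K4me1 there covered 1269 and 1619 bp in WT and 556 and 560 bp in RXRKO, a log2 difference of -1.28 ± 0.175 (SE, limma adjusted p = 0.308). H3K4me3 covered 582 bp of it in WT and was not called in RXRKO.
The element inside Arhgef3, an exchange factor for RhoA, lies at chr14:27123329-27124057 and had the highest fold of all elements, 9.54. Its H3K4me1 covered 1372 and 1365 bp in WT and 438 and 417 bp in RXRKO, a difference of -1.53 ± 0.177 (SE, limma adjusted p = 0.308), and H3K4me3 was called in WT alone at a fold of 10.9. Over the fits without 1 library the difference ran from -1.42 to -1.13 at Tnpo1 and from -1.65 to -1.42 at Arhgef3. The element 130244 bp downstream of Tpra1 (chr6:89042484-89043466) had 1131 and 1243 bp in WT and 622 and 822 bp in RXRKO, again without overlap.
The others of the 10 differed less. The element downstream of Snx5, a sorting nexin, had 923 and 1031 bp in WT against 671 and 729 bp in RXRKO. The Clmp element had 611 and 1362 bp against 486 and 597 bp, so WT replicate 1 was close to the RXRKO libraries. Its difference was -1.23 without WT replicate 1, -0.23 without WT replicate 2, and -0.69 and -0.77 without RXRKO replicates 1 and 2. The elements in Cacna1a, a calcium channel gene, in Tmem51 and near Rpl14 had overlapping values, and the one near Fdx1, a mitochondrial ferredoxin, had 790 and 873 bp against 697 and 773 bp with H3K4me3 in neither genotype.

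**Figure D4:**
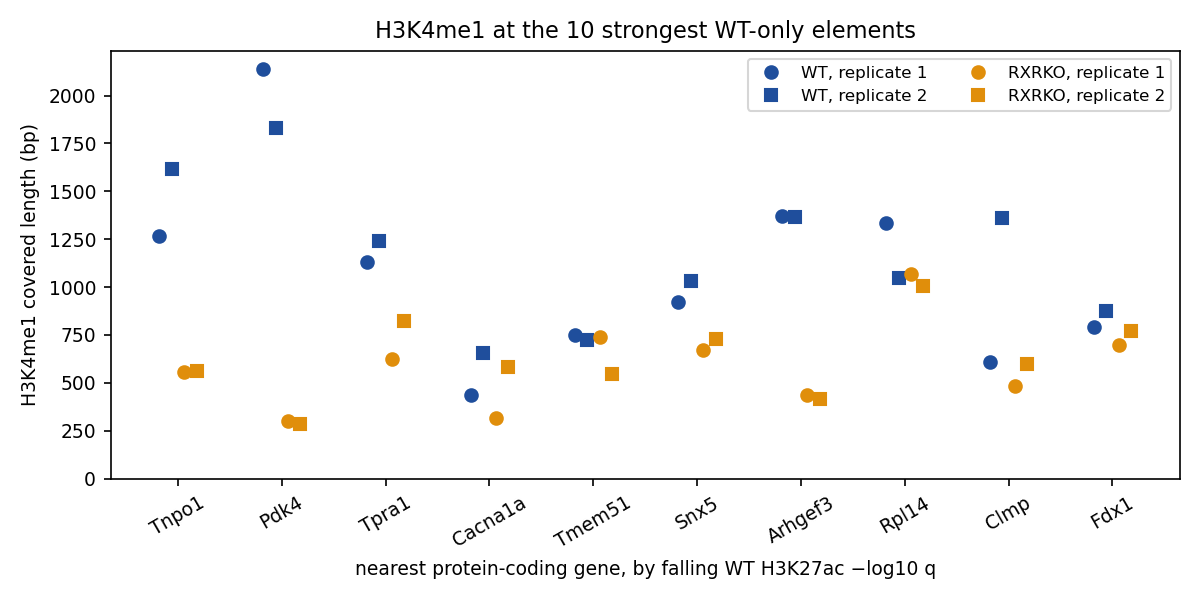
H3K4me1 covered length in the element and 1 kb on each side, for the 10 control-only elements with the highest WT H3K27ac -log10 q, named by the nearest protein-coding gene. Each point is 1 library (circles replicate 1, squares replicate 2, blue WT, orange RXRKO). The 2 WT points lie above the 2 RXRKO points at 7 of the 10, and the gap is widest at Pdk4.

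Beyond Pdk4 and Arhgef3, the smallest p among elements with less H3K4me1 in RXRKO belonged to Adcy7, Acsl1 and Arrdc4. Adcy7 encodes an adenylyl cyclase, and its element (chr8:88282664-88283206, with the start window printed above) had H3K4me1 over 1020 and 985 bp in WT and 198 and 260 bp in RXRKO, a difference of -1.81 ± 0.205 (SE). The element 12119 bp upstream of Acsl1 (chr8:46458079-46458918), the enzyme that activates long-chain fatty acids, had 1140 and 1291 bp in WT and 358 and 268 bp in RXRKO, a difference of -1.73 ± 0.23 (SE). Near Arrdc4, an arrestin-domain relative of Txnip, the element 68415 bp downstream of the gene (chr7:68668177-68668579) had 1329 and 1270 bp against 190 and 410 bp. All 3 had a limma adjusted p of 0.308. Over the fits without 1 library the differences ran from -1.86 to -1.76 at Adcy7, -1.98 to -1.49 at Acsl1 and -2.24 to -1.60 at Arrdc4. Of the 3 control-only elements nearest to Acsl1, 1 was below 0, the element described here.

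Some control-only elements had wider H3K4me1 in RXRKO. The smallest p among these were upstream of Phf21a, a component of the LSD1 demethylase complex, with 204 and 282 bp in WT and 858 and 958 bp in RXRKO, and inside Ahctf1, a nuclear pore gene, with 322 and 429 bp against 1088 and 1216 bp. Inside Cemip the values were 185 and 201 bp against 662 and 1040 bp, and near Kif6 and inside Dnah14 they were 847 and 738 against 1444 and 1599 bp and 549 and 516 against 1055 and 1819 bp. Limma adjusted p was between 0.308 and 0.409. With 1 library left out, the differences ran from 0.70 (Kif6, without WT replicate 2) to 1.82 (Cemip, without RXRKO replicate 1). The WT -log10 q of these elements for H3K27ac was between 3.03 and 9.37. With the element alone as the window, the difference was 0.70 at Phf21a and 0.98 at Cemip, but 0.01 at Ahctf1 and -0.01 at Kif6 and Dnah14. H3K4me1 filled or nearly filled the latter elements in all 4 libraries, so their wider H3K4me1 lay in the 1 kb on each side.

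H3K4me3, from libraries the rule did not use but of the run of the H3K27ac libraries, was mostly not called at the elements. It was called in neither genotype at 8771 elements (62.7%), in both at 3183 (22.8%), in RXRKO alone at 1387 (9.92%) and in WT alone at 644 (4.6%). At RXRKO-only regions 65.8% had it in neither genotype and 14.2% in both, and at shared regions 21.7% and 59.9%. Mostly absent H3K4me3 was thus not particular to the elements. Over all 60434 regions 15.7% had it in RXRKO alone and 1.97% in WT alone, so the elements held fewer RXRKO-only and more WT-only calls than the whole set. The RXRKO H3K4me3 list is the longer, with a recovered background 1.62 times that of WT. With the same number of top peaks from both lists, 1113 elements (7.96%) had H3K4me3 in WT alone and 506 (3.62%) in RXRKO alone, which turns the balance round. Over all regions that setting gave 4.79% and 7.48%. By WT acetylation strength, WT-only H3K4me3 was found at 2.55%, 3.09%, 5.23%, 10% and 29.7% of the elements from the weakest to the strongest class, and at no more than 1.56% of shared regions in any class.

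Where H3K4me3 was called in WT alone, H3K4me1 leaned lower too. At these 644 elements the median H3K4me1 difference was -0.16, with both RXRKO libraries below both WT libraries at 268 (41.6%) and above both at 20 (3.11%). At the 8771 elements with no H3K4me3 the median was -0.08 and the shares 28.9% and 8.94%, and at the 1387 with H3K4me3 in RXRKO alone -0.02, 18% and 14.2%. At shared regions with H3K4me3 in WT alone the median was -0.07 and the lower share 28.5%. These groups were not tested against each other. Among elements that H3K4me3 overlapped in WT alone, the highest H3K4me3 -log10 q were inside Rpgrip1, Slc66a2, Slc43a2, Dmxl1 and Rasa4. Each lay within 1340 bp of an RXRKO H3K27ac peak. For RXRKO alone they were inside Rccd1, Zfp770, Osbpl1a and Scp2 and near Asap2, each within 731 bp of such a peak. H3K4me3 of the other genotype lay within 1 kb of each, over 666 to 988 bp in the first group and 741 to 986 bp in the second. Some overlaps with the element were short, such as 70 bp at Slc43a2 and 4 bp at Zfp770. H3K4me3 was thus present beside these elements in both genotypes, and the calls differ only in what overlapped the element. Among these 10, H3K4me1 after centring had no overlap in the lower direction at 3 and in the higher direction at Rccd1. Over all elements those shares were 27.2% and 8.92%, and over all regions 18.6% and 15%. Slc66a2, with 1151 and 425 bp in WT and 350 and 292 bp in RXRKO, had the largest difference. The other elements counted as lower, Rpgrip1 and Osbpl1a, overlapped in covered bp before centring.

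Elements were assigned to the nearest protein-coding gene, which is a position and not a shown target. They fell to 6665 genes, 3606 of which had 1 element and 63 of which had 10 or more. The most were near Foxp1, a forkhead factor of blood cells, and Pde4d, a cyclic AMP phosphodiesterase, with 24 of 74 and 24 of 78 distal regions. Zmiz1, a coactivator gene, had 20 of 61, Adgrl2, an adhesion receptor gene, 19 of 74 and Zfp608, a zinc finger gene, 18 of 64. H3K4me1 was below 0 at 16 of the 24 Foxp1 elements and 14 of the 24 at Pde4d, and the groups did not overlap, lower in RXRKO, at 4 and 5, where 27.2% of all elements and 18.6% of all regions did so. The highest shares among genes with 10 or more regions, chosen after the values were seen, were 8 of 11 at Btrc, a ubiquitin ligase subunit, 8 of 11 at Dusp22, a phosphatase, 7 of 10 at Asb17, and 7 of 10 at Ramp1, a receptor partner for the peptide CGRP. The longest runs of neighbouring distal regions that were all control-only held 9 elements, at Dnah11 and Sp4 (chr12:117993523-118221788) and at Kif12, Col27a1 and Zfp618 (chr4:63123304-63282039), while 8038 runs held 1.

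Across 15 gene lists the control-only share stayed near the 23.1% of all distal regions. For genes known as targets of RXR pairs it was 23.8% (36 of 151), for nuclear receptors 24.1% (68 of 282) and for their coregulators 21.1% (43 of 204). It was 23.6% for HSC transcription factors (188 of 795), 22.4% for HSC surface and self-renewal genes (106 of 473) and 21.3% for quiescence genes (47 of 221). The MYC family, its targets and cell cycle genes had 22.9% (22 of 96), 22.9% (19 of 83) and 23.1% (28 of 121), and interferon and inflammation genes 24.6% (45 of 183). For markers of mature blood cells, which the Lin- gate is meant to remove, and of other cells, it was 20.3% (15 of 74) for erythroid and megakaryocyte genes, 18.2% (8 of 44) for granulocyte and monocyte genes, 22.8% (28 of 123) for lymphocyte genes, and 25.6% (31 of 121) for stromal and endothelial genes. For genes silent in blood it was 27.3% (6 of 22).

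**Figure D5:**
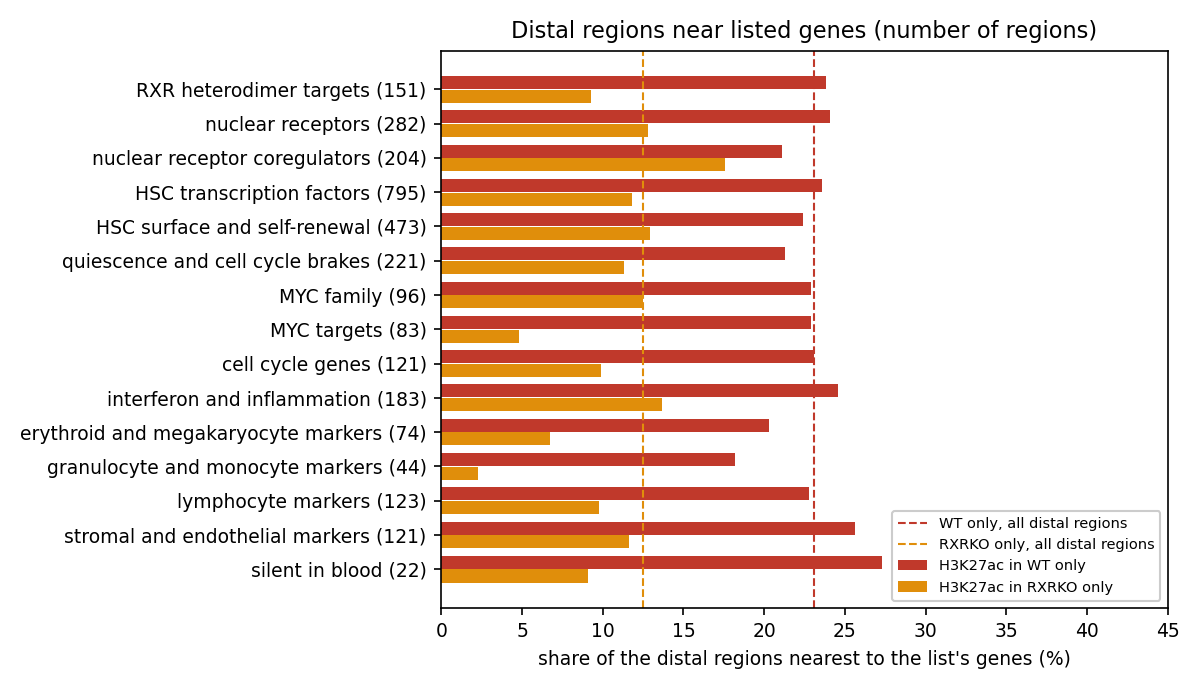
For each gene list, the percent of distal regions nearest to its genes that were acetylated in WT only (red) or RXRKO only (orange), with the number of regions in parentheses and the shares over all 60434 regions as dashed lines. The red bars run from 18.2% to 27.3% around the 23.1% line.

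Among targets of RXR pairs, 12 of the 36 elements had H3K4me1 lower in both RXRKO libraries and 2 had it higher, where over all elements the shares were 27.2% and 8.92% and over all regions 18.6% and 15%, with a median difference of -0.07, as over all elements, and none had an adjusted p under 0.05 in limma. Besides Pdk4, the strongest was inside Abcg1, a cholesterol exporter and LXR target (chr17:31073278-31073734, -log10 q 14.2), where H3K4me1 covered 1187 and 742 bp in WT and 802 and 1128 bp in RXRKO and H3K4me3 was called in both. Cyp26b1, which clears retinoic acid, had 6 control-only elements of 8 distal regions, Mylip, an LXR-driven ubiquitin ligase for the LDL receptor, 4 of 12, and Abca1, the other LXR-driven cholesterol exporter, 3 of 16. The single distal regions of Plin2, a lipid droplet coat gene, and of Angptl4, an inhibitor of lipoprotein lipase, were both control-only, with H3K4me1 differences of -0.565 and -0.521. The last 5 genes were picked after their values were seen.
Nuclear receptor genes had elements inside Esr1 (chr10:4910377-4910890, -log10 q 20.0), with 1498 and 1507 bp in WT and 1210 and 788 bp in RXRKO, and inside Ppard (chr17:28294464-28295089, -log10 q 17.0), with 874 and 909 bp against 850 and 863 bp. Rora had 17 control-only elements of 57 and Rxra, itself deleted here, 5 of 16, 2 genes picked after their values were seen. Of the coregulators, Nrip1, a corepressor of nuclear receptors, had 9 of 34, its strongest with 840 and 1061 bp against 791 and 806 bp.

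Of the HSC regulators, Meis1 and Runx1 each had 14 control-only elements of 44 distal regions, Ikzf2 13 of 29 and Mecom 8 of 62, counts picked after they were seen. The strongest at Meis1 (chr11:18927328-18927779, -log10 q 14.5) lay 1884 bp from an RXRKO H3K27ac peak and had H3K4me1 over 467 and 538 bp in WT and 437 and 913 bp in RXRKO. The Klf12 element at -log10 q 19.3 had 1459 and 1960 bp against 1565 and 1452 bp. Downstream of Kit, the stem cell factor receptor, an element at -log10 q 15.0 had 847 and 1428 bp against 842 and 1772 bp. Values of these 3 overlapped between genotypes.
Near the brakes on division, Btg2, an antiproliferative gene, had the strongest element (chr1:134067122-134067463, -log10 q 24.6), with H3K4me1 over 518 and 630 bp in WT and 404 and 650 bp in RXRKO and H3K4me3 in both. Of the MYC family, Max, the partner of MYC, had elements at -log10 q 6.3 and 6.09, the first with 1038 and 996 bp in WT and 724 and 498 bp in RXRKO and the second with overlapping values. Mlxipl, the carbohydrate-responsive factor ChREBP, had 866 and 872 bp against 613 and 657 bp. The median difference was 0.103 over the 5 Max elements and 0.0549 over the 6 near Myc, each with 2 below 0. Over the 22 elements of the family it was -0.04, with 12 below 0, where 66.5% of all elements and 54.7% of all regions were. The Myc count was picked after its values were seen. The strongest at cell cycle genes was inside Ccnd3, cyclin D3, with 424 and 529 bp against 509 and 427 bp. Upstream of Irf8, a myeloid interferon factor, an element at -log10 q 16.3 had 1392 and 1389 bp against 1284 and 1353 bp and H3K4me3 in WT alone. None of these named elements had an adjusted p under 0.05 in limma.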

How the data were processed

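The deposited files are peak lists of 8 CUT&RUN libraries on mm10. Per the submitters' processing notes, cutadapt 1.7.1, Bowtie2 2.2.5 and MACS3 were used, with settings not given in the sources used here. Per the file columns, the authors deposited for each peak a score, a fold (ratio over local background), -log10 p and -log10 q values, and the summit offset in bp. The deposited peak coordinates, of no other unit, gave all overlaps. Pileup and background were solved from the deposited fold and -log10 p.

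H3K27ac peaks were merged at any overlap of 1 bp. Gene ends came from 21631 protein-coding genes of RefSeq GRCm38.p6, whose main chromosomes are those of mm10. H3K4me1 covered length (pseudocount 100 bp) was tested with limma 3.58.1 (trend) in R 4.3.3 on the 4 H3K4me1 libraries over 60434 regions, with no block, and checked on simulated data. Tables were made with pandas 2.3.3 in Python 3.11.15.

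Elements and gene lists were chosen with earlier results of these data known. Named were the 10 of highest WT -log10 q, the 5 of smallest H3K4me1 p in each direction, up to 3 per list, the 5 of highest H3K4me3 -log10 q called in 1 genotype, the 5 genes with most elements, and those near Pdk4, others being marked as picked later. Alternatives varied thresholds, windows, pseudocount, centring and libraries.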

Additional observations from a re-analysis of the deposited data

How the results depend on the processing

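Of 88 alternatives to the summary values, 76 stayed within the limits set for them and 12 moved. For the median H3K4me1 difference the limit was the SD of the within-replicate medians, 0.0649, nearly as large as the main value of -0.067. Values of -0.010 and -0.008 therefore counted as within it, and this limit could hardly show a loss of the lean. With -log10 q of at least 5 only in the genotype that called the region, 6979 regions were acetylated in WT alone and 2902 in RXRKO alone. Other thresholds, distances and overlaps gave 10102 to 13310 and 5645 to 9911, and leaving out 1 H3K4me1 library gave 14067 to 14388 and 7584 to 7944. With equal numbers of top H3K4me3 peaks, 1113 elements had H3K4me3 in WT alone and 506 in RXRKO alone. Leaving out 1 H3K4me1 library gave 0 to 187 elements called lower and 0 to 43 called higher by limma, and 0 to 264 and 0 to 803 of all regions. Calls were made only without WT replicate 1 (187 and 43 elements) or WT replicate 2 (92 and 37), where the lone WT library is assumed to vary like RXRKO. The median difference over the elements was -0.095 to -0.036 in these fits, -0.010 without centring and -0.008 with the element alone as the window, where most values are at full coverage.

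With the replicate number as a replicate block, limma called 0 regions, the median was again -0.067, 1540 elements were under an unadjusted p of 0.05 and the smallest adjusted p was 0.0504, at Pdk4. The replicate deviations of the genotypes correlated at 0.17 over 60434 regions, but with 2 pairs the numbers mark runs and not shared mice. Of 209 values of single elements under alternatives, 22, at 12 elements, passed an adjusted p of 0.05 in limma, 12 of them without WT replicate 1 and 10 without WT replicate 2. Another 6 changed sign, none of them called: Tmem51 to 0.03 without RXRKO replicate 2, Kif6 and Dnah14 to -0.01 with the element alone as the window, and the weaker Pdk4 element to 0.03 without centring, 0.03 without WT replicate 1 and 0.22 without RXRKO replicate 1. Over the 4 fits without 1 library, the Tmem51 value ran from -0.52 to 0.03 and that of the weaker Pdk4 element from -0.29 to 0.22. The causes were not tested.

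Depth is unknown: a peak missing from 1 library near the threshold is a missed call or a lower level, and 1 library per genotype cannot separate these. Covered length saturates where H3K4me1 fills the window, and it does not record peak height.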
